A study of Mus musculus with 6 samples.

Results

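The 40 genes described here encode the contractile machinery of skeletal muscle and the proteins that trigger and fuel it, measured in total RNA from mouse ear skin. They are 12 genes of the thick filament and M-band, 9 of the thin filament, 7 of the Z-disc and titin, 7 of calcium handling and 5 of energy supply. They were taken by gene symbol from the scanner files, and all 40 were measured among the 23676 genes tested. The 6 arrays came from 6 mice, 1 array each: 3 wild-type (WT) mice labelled NC16A sufficient, numbered 1, 2 and 3, and 3 knockout (KO) mice labelled NC16A deficient, numbered 1, 2 and 7. NC16A is a segment of BP180, the transmembrane collagen of hemidesmosomes in basal keratinocytes. Age and sex were matched between the groups, and the strain, the age itself and the extent of the deleted segment are not given in the sources used here. No group was treated.

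In a sarcomere, myosin heads of the thick filament pull on actin of the thin filament, and calcium binding to troponin lets them do so. Calcium leaves the sarcoplasmic reticulum through the ryanodine receptor and is pumped back by a calcium ATPase. Fast and slow fibres carry different genes for myosin heavy chains, light chains and troponin subunits, so the pair of isoforms of 1 subunit marks the fibre types present. The mouse ear holds thin auricular muscles beside its cartilage. In whole ear tissue, a lower signal from fewer muscle fibres and one from less RNA per fibre cannot be told apart.

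The 52 probes of the 40 genes were well above background on all 6 arrays. Paralogous myosins are the case where probe identity matters most, so the first 30 bases of the heavy chain probes are given, 5′ to 3′ in the sense of the transcript.
Myh1, fast type 2X: gatgagcaaaatgtgaagatctttgtcact
Myh2, fast type 2A: tgattctattccatcctgttgtaaggaaat
Myh4, fast type 2B: gaagaataatccatctttctgttgagaggt
Myh7, slow type 1: atgaggagtagctcttgtgctacccagctc
On mm9 they lie within single exons at chr11:67038002-67038061 (Myh1), chr11:67010960-67011019 (Myh2) and chr11:67073834-67073893 (Myh4), all on the plus strand, and at chr14:55589581-55589640 on the minus strand (Myh7). Over their full 60 bases, aligned end to end, the probes of Myh1 and Myh2 share 14 bases, those of Myh1 and Myh4 share 22 and those of Myh2 and Myh4 share 25.

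RefSeq promoters (GRCm38.p6) were listed for 30 of the 40 genes. The 250 bases before the start are shown for skeletal actin and for the type 2X and 2B myosins, as examples of a thin and of 2 thick filament genes, chosen after the matches were seen, with matches to the CArG box, the MEF2 site and TATAAA in capitals.
Acta1, chr8:123894776-123895025, minus strand: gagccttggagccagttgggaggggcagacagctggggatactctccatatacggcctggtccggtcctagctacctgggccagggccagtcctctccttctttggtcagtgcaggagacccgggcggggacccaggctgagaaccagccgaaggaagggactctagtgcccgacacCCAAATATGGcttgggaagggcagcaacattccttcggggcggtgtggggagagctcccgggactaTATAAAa
Myh1, chr11:67199852-67200101, plus strand: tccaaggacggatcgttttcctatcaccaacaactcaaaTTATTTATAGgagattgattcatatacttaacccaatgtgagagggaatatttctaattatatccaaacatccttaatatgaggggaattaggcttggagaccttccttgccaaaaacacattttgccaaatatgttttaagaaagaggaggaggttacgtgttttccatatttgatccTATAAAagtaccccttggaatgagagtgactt
Myh4, chr11:67237562-67237811, plus strand: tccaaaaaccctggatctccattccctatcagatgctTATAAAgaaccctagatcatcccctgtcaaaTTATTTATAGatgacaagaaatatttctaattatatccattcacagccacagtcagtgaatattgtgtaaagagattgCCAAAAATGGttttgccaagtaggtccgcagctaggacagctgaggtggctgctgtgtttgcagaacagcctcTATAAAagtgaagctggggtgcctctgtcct
The CArG box, bound by serum response factor, matched 16.2% of the 37 promoters of these genes and 1.63% of all 32851 promoters of the same 300 bases. The MEF2 site matched 10.8% against 3.19%, TATAAA 18.9% against 13.6%, and the E-box CANNTG, the core bound by MyoD and myogenin, 83.8% against 72.3%. All motifs were searched on both strands. In Myh1 and Myh4 the MEF2 match overlaps a TATAAA match on the opposite strand. A CArG match was also listed for Myl3, Ldb3 and Myom1, and a MEF2 match for Ttn and Pvalb. These are matches of letters and carry no test.

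None of the 40 genes passed the test between KO and WT. Their mean signal was lower in KO for 32 and higher for 8, with a median difference of -0.51 on the log2 scale against 0.054 over all genes tested, of which 44.9% were lower. Of the 8, Tnnc2, Tcap, Tnni1 and Myh2 turned lower under at least 1 of normexp background, quantile normalization and the array median. Differences ran from -1.34 for Mylpf, the fast regulatory light chain, to 0.30 for Myl2, its slow counterpart. Signals are log2 of the processed intensity minus the array's 75th percentile, and differences are KO minus WT with the standard error of a limma fit to all genes, from 3 mice per group. A gene passed at an adjusted p (Benjamini-Hochberg over all genes) under 0.05, and across all genes 2.37% did so, with 0.389% lower in KO. The smallest adjusted p among the 40 was 0.11, for Myh1. At an unadjusted p under 0.05 there were 4 (Myh1, Mb, Cacng1 and Ampd1), against 26.6% of all genes. In 5 genes (Myh1, Mylpf, Myl1, Mb and Cacng1) every KO mouse lay below every WT mouse, where 14% of all genes did. In 1 gene, Tnnt1, every KO mouse lay above, against 21.4% of all genes. The groups overlapped in the other 34. The share of the 40 with groups apart was thus near the background for lower values and below it for higher ones.

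Mice of the same group differed widely in these genes. Relative to the WT mean, the average over the 40 genes was -0.53 in WT 1, 0.36 in WT 2 and 0.17 in WT 3, and -0.037, -0.28 and -1.02 in KO 1, KO 2 and KO 7. KO 7 gave the lowest of the 6 values for 32 genes, WT 2 the highest for 33, and WT 1 the lowest WT value for 35. In 23 genes the difference between groups was smaller than the SD of the WT mice. Slide 1 held the 3 WT arrays and KO 1, and slide 2 held KO 2 and KO 7. Within slide 1, KO 1 lay below the WT mean for 24 of the 40 genes, with a median of -0.064. The median difference of the 40 was -0.16 without KO 7, -0.24 without WT 2 and -0.78 without WT 1, and none of the 6 fits that each left out 1 mouse gave a call among them.

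**Figure D1:**
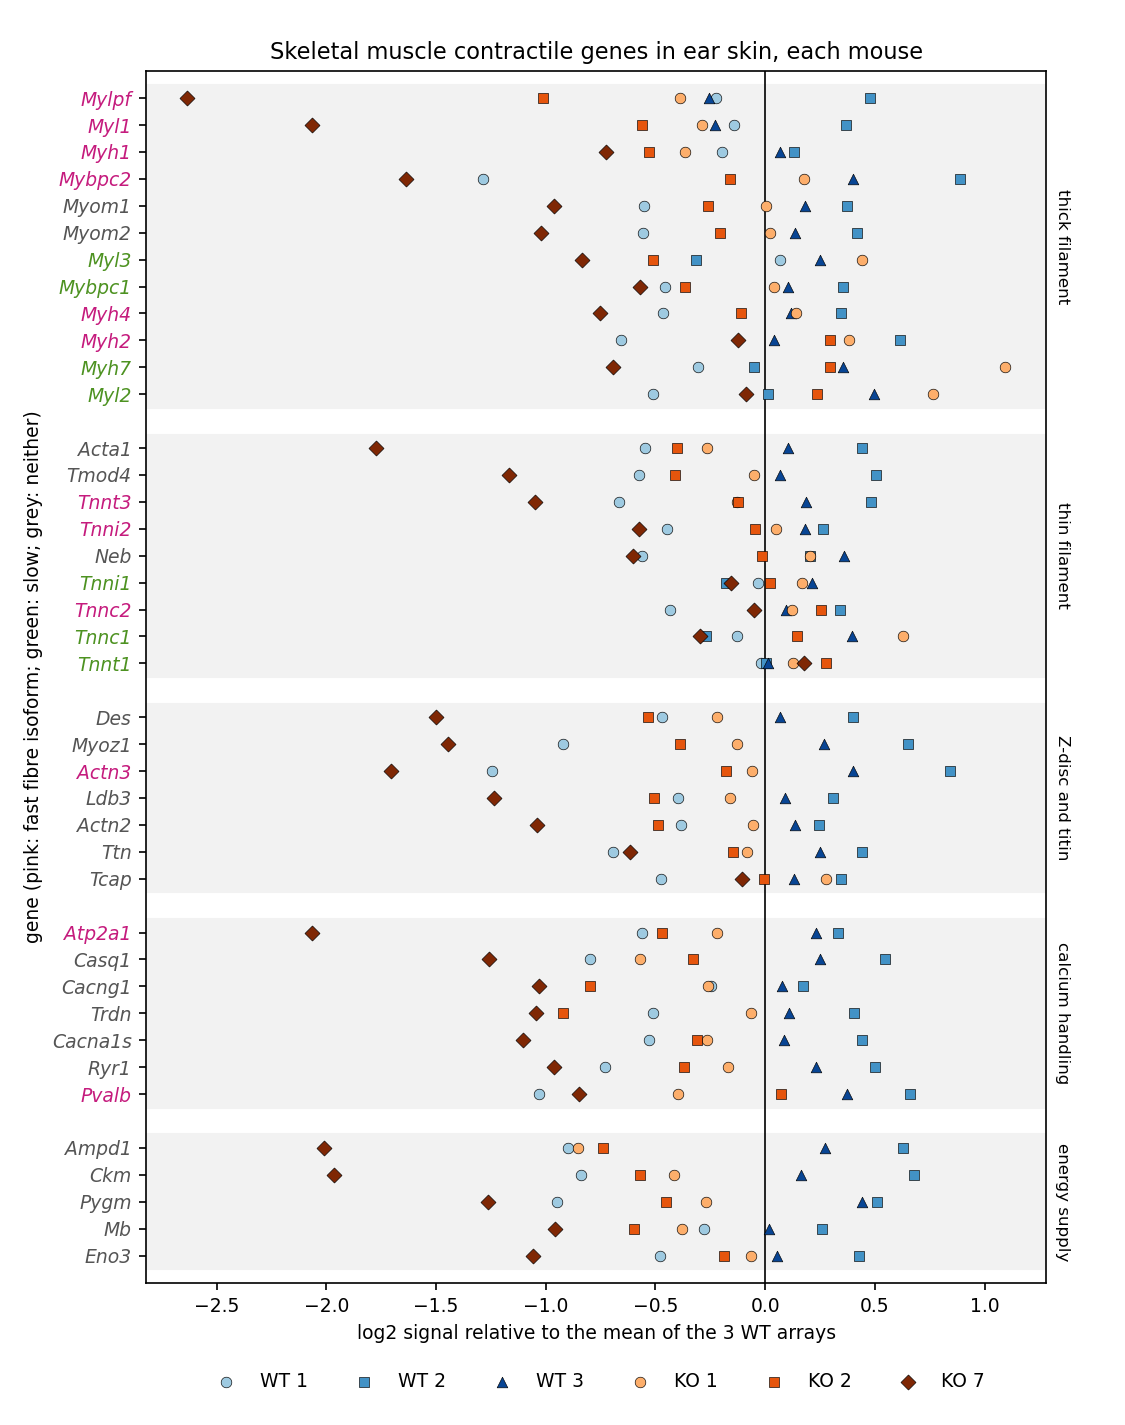
Log2 signal of each of the 40 genes in each mouse, relative to the mean of the 3 WT arrays (x axis), with genes on the y axis grouped by role; circles, squares, triangles and diamonds are single mice. KO 7 is leftmost for 32 genes and WT 1 is the lowest WT mouse for 35, and the groups overlap in 34.

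Among the thick filament genes, the differences of the fast myosin heavy chains lay on both sides of 0. Whether they differ from each other was not tested. Myh1, the type 2X chain, was 4.86, 5.19 and 5.13 in WT mice 1, 2 and 3, and 4.70, 4.53 and 4.33 in KO 1, 2 and 7. All KO mice were below all WT mice, by -0.54 ± 0.16 on average (1.45-fold lower, adjusted p = 0.11 in limma), and the SD was 0.18 in each group. Its processed intensity before scaling was 193500, 192700 and 192900 in WT, a far narrower spread than that of the scaled values. Myh4, the type 2B chain, was 5.37, 6.18 and 5.95 in WT mice and 5.97, 5.72 and 5.08 in KO, a difference of -0.24 ± 0.30 (adjusted p = 0.62). Myh2, the type 2A chain, was 4.38, 5.65 and 5.08 in WT mice and 5.42, 5.33 and 4.91 in KO, with WT 1 the lowest of all, and differed by 0.18 ± 0.33 (adjusted p = 0.73). The slow chain Myh7 was 1.42, 1.67 and 2.08 in WT mice, and 2.82, 2.02 and 1.03 in KO, so that the KO mice held both the highest and the lowest value. It differed by 0.23 ± 0.44 (adjusted p = 0.75).

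The widest difference of the 40 genes was that of Mylpf. It was -2.38, -1.68 and -2.41 in WT mice and -2.54, -3.17 and -4.79 in KO, a difference of -1.34 ± 0.56 (2.54-fold lower, adjusted p = 0.19). The groups did not overlap, but KO 1 lay just below WT 3, and KO 7 far below the rest. Mylpf was read by 1 probe, at base 69 of its transcript, and had the lowest WT mean of the 40 genes (-2.2, against 5.6 for Myl1). Myl1, the fast essential light chain, was 5.47, 5.98 and 5.38 in WT mice and 5.32, 5.05 and 3.54 in KO (-0.97 ± 0.47, adjusted p = 0.23), with the same order of the KO mice. Without KO 7 the difference was -0.70 for Mylpf and -0.43 for Myl1. The slow light chains lay on both sides of 0 with overlapping groups. Myl2 was 1.45, 1.97 and 2.45 in WT mice and 2.72, 2.19 and 1.87 in KO (0.30 ± 0.32, adjusted p = 0.55). Myl3 was 1.25, 0.87 and 1.43 against 1.63, 0.67 and 0.35 (-0.30 ± 0.34, adjusted p = 0.59). Myosin-binding protein C, which tethers the heads to the thick filament, overlapped between the groups in its fast form Mybpc2 (0.015, 2.19 and 1.71 in WT, 1.48, 1.14 and -0.33 in KO; -0.54 ± 0.68). Its slow form Mybpc1 also overlapped (2.44, 3.25 and 2.997 in WT, 2.94, 2.53 and 2.32 in KO; -0.30 ± 0.26). The M-band proteins Myom1 and Myom2, which crosslink thick filaments, differed by -0.41 and -0.40. Over the 12 thick filament genes the median difference was -0.35, with 9 lower in KO, and in KO 1 alone 3 of the 12 were below the WT mean.

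Thin filament genes lay nearest to 0, with a median of -0.14 and 5 of 9 lower. Acta1, the actin of skeletal muscle, was 4.64, 5.63 and 5.29 in WT mice and 4.92, 4.79 and 3.42 in KO (-0.81 ± 0.45, adjusted p = 0.28), and KO 7 was more than 1 log2 unit below every other mouse. Tropomyosin is moved by the troponin complex, whose subunit T binds tropomyosin, whose subunit C binds calcium and whose subunit I inhibits. The slow subunit Tnnt1 had the tightest values of the 40 genes: 4.46, 4.48 and 4.49 in WT mice and 4.60, 4.75 and 4.65 in KO. Its groups did not overlap, with a WT SD of 0.015, but the difference of 0.19 ± 0.12 had an adjusted p of 0.31. The WT range of Tnnt1 was 0.030, against 1.15 for Tnnt3. Whether the Tnnt1 signal comes from muscle was not tested. The fast subunit Tnnt3 was 4.64, 5.79 and 5.50 in WT mice and 5.18, 5.19 and 4.26 in KO (-0.43 ± 0.38).
Tnnc1, the slow calcium-binding subunit, was -1.77, -1.91 and -1.25 in WT mice and -1.02, -1.50 and -1.94 in KO (0.16 ± 0.28). The fast Tnnc2 was 5.59, 6.37 and 6.12 against 6.15, 6.28 and 5.97 (0.11 ± 0.22), and its lowest mouse was WT 1. Of the inhibitory subunits, the slow Tnni1 was -0.43, -0.57 and -0.18 in WT mice and -0.23, -0.37 and -0.55 in KO (0.012 ± 0.16), the smallest difference of the 40. The fast Tnni2 was 5.71, 6.42 and 6.34 against 6.21, 6.11 and 5.58 (-0.19 ± 0.26). Neb, the nebulin that runs along actin, and Tmod4, which caps its pointed end, differed by -0.14 and -0.54. All 9 adjusted p-values were 0.28 or above.

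**Figure D2:**
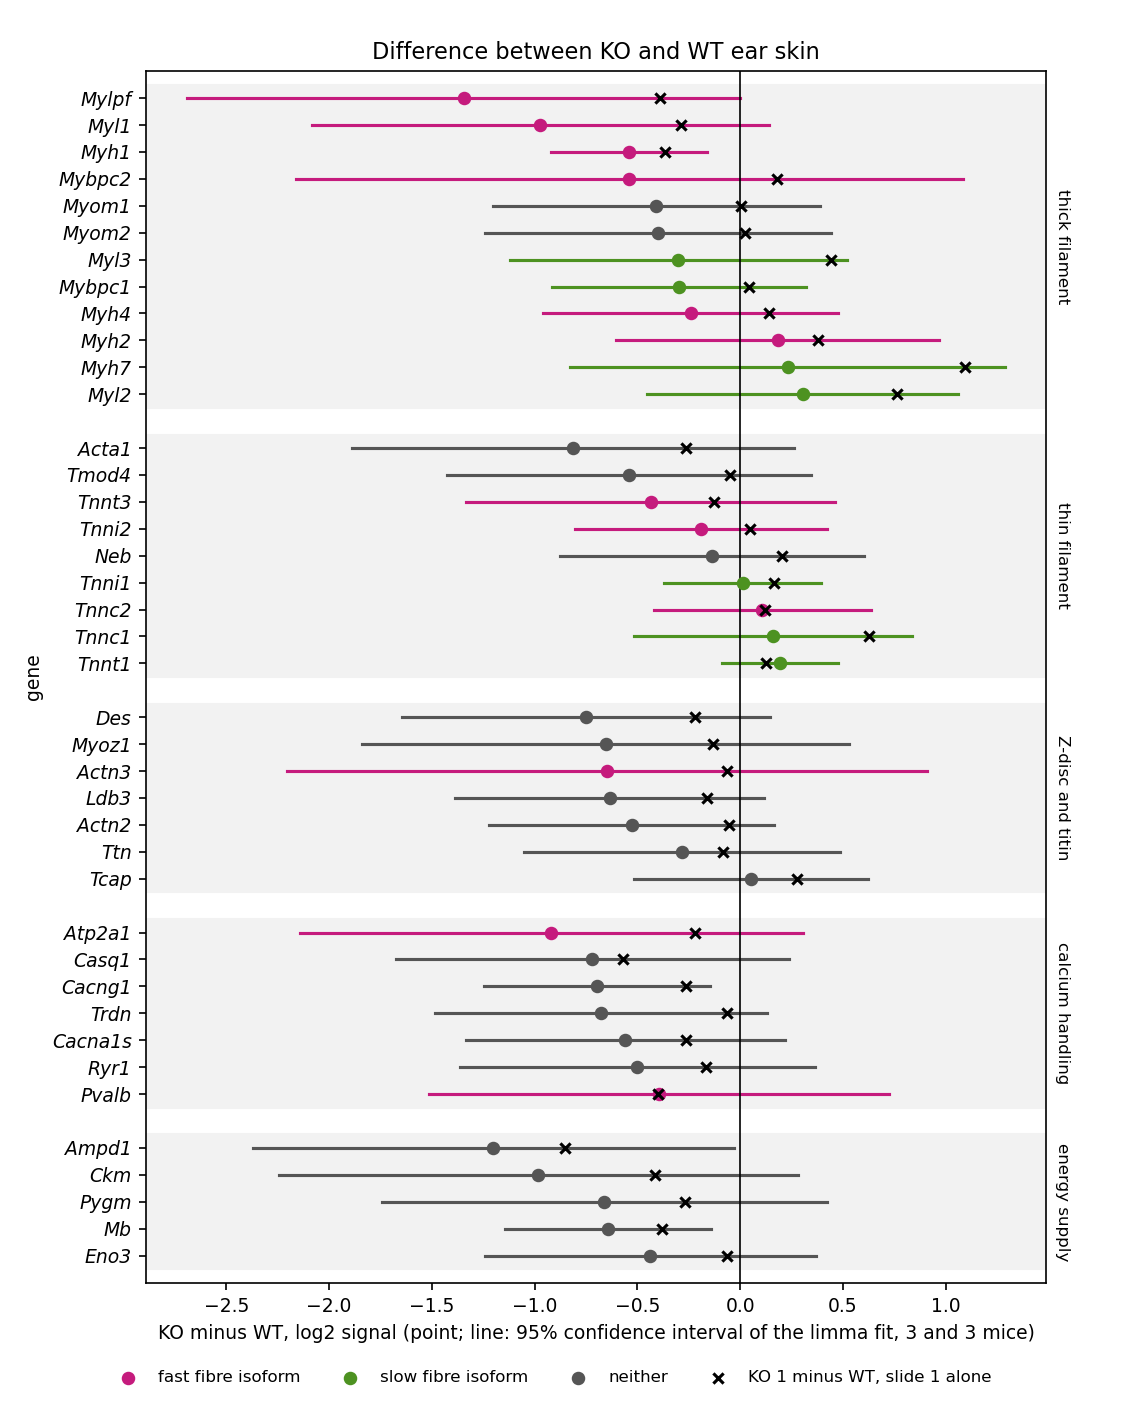
KO minus WT difference in log2 signal for each of the 40 genes (points) with the 95% confidence interval of the limma fit (lines), and KO 1 minus the WT mean within slide 1 (crosses). The interval lies below 0 for 4 genes and above 0 for none, and the slow isoforms in green lie between -0.30 and 0.30.

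Of the Z-disc and titin genes, 6 of 7 had a lower mean in KO (median difference -0.63). Ldb3, a PDZ-LIM protein that binds alpha-actinin at the Z-disc, had the smallest p of these. It was 0.71, 1.42 and 1.20 in WT mice and 0.95, 0.60 and -0.13 in KO (-0.63 ± 0.31, adjusted p = 0.24), with WT 1 below KO 1. Des, the intermediate filament desmin, differed by -0.75, the alpha-actinins Actn2 and Actn3 by -0.53 and -0.65, and the calsarcin Myoz1 by -0.65. Tcap, the cap of titin's end in the Z-disc, differed by 0.055. Ttn, the giant spring of the sarcomere, was read by 4 probes along its transcript. They differed by -0.11, 0.28, 0.33 and -0.28 from the 5′-most to the 3′-most, the only gene of the 9 with several probes whose probes lay on both sides of 0.

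All 7 calcium handling genes had a lower mean in KO (median difference -0.68), and all 7 were below the WT mean in KO 1 alone, with a median of -0.26. In WT 1, on the same slide, all 7 were also below the WT mean, with a median of -0.56. Cacng1, the gamma subunit of the muscle calcium channel, was -1.57, -1.16 and -1.25 in WT mice and -1.59, -2.13 and -2.36 in KO. The groups were apart, though KO 1 and WT 1 differed by little, and the difference was -0.70 ± 0.23 (1.62-fold lower, adjusted p = 0.13). The largest difference was in Atp2a1, the calcium pump of fast fibres (-0.92 ± 0.51, adjusted p = 0.28), and the smallest in Pvalb, the calcium buffer of fast fibres (-0.39 ± 0.47). Between them lay the calcium store protein Casq1 (-0.72), its anchor Trdn (-0.68), the voltage sensor Cacna1s (-0.56) and the release channel Ryr1 (-0.50).

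All 5 energy genes had a lower mean in KO as well (median difference -0.66), and all 5 were below the WT mean in KO 1 alone, with a median of -0.38. In WT 1 all 5 were below it too, with a median of -0.84. Mb, the oxygen store myoglobin, was 4.45, 4.98 and 4.74 in WT mice and 4.34, 4.12 and 3.77 in KO. All KO mice lay below all WT mice, by -0.64 ± 0.21 (1.56-fold lower, adjusted p = 0.13). Ampd1, the muscle AMP deaminase, had the largest difference of these genes, -1.20 ± 0.49 (2.30-fold lower, adjusted p = 0.18), with WT 1 within the range of the KO mice. The creatine kinase Ckm, the glycogen phosphorylase Pygm and the enolase Eno3 differed by -0.98, -0.66 and -0.44.

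No fast or slow isoform gene passed the test, and whether the sets differ was tested only pair by pair, where 3 against 3 mice cannot reach an exact p under 0.05. Of the 12 fast genes 10 had a lower mean in KO, with a median of -0.49, and of the 7 slow genes 2, with a median of 0.16. Averaged over genes and relative to the WT mean, the fast set was at -0.61, 0.48 and 0.13 in WT mice 1, 2 and 3, and at -0.082, -0.21 and -1.19 in KO 1, 2 and 7. The slow set was at -0.20, -0.064 and 0.26 in WT mice, and at 0.47, 0.0145 and -0.35 in KO. The gap between the sets was therefore -0.42, 0.54 and -0.13 in WT mice, and -0.55, -0.23 and -0.83 in KO, and WT 1 lay among the KO mice. Within slide 1 the fast median was -0.095 and the slow median 0.44, with KO 1 above the WT mean in all 7 slow genes, as was WT 3. Without KO 1, 5 of the 7 slow genes were lower in KO and their median was -0.076.

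Subtracting the slow from the fast isoform on each array removes only what shifts both signals by the same log2 amount. The gap between the set averages was highest in WT 2 (0.54) and lowest in KO 7 (-0.83). These mice also had the highest and the lowest mean over the 40 genes (0.36 and -1.02), which include the fast genes. The order broke between them. KO 1 had a lower gap than WT 1 (-0.55 and -0.42) but a higher mean (-0.037 and -0.53). Whether the gaps follow the amount of muscle was not tested. All 7 pairs had a smaller fast-minus-slow gap in KO, by -1.65 for Mylpf over Myl2 to -0.051 for Tnnc2 over Tnnc1, with a median of -0.47. Mylpf over Myl2, which rests on the dim 5′ probe of Mylpf, was the only pair whose groups were apart. Relative to its WT mean this gap was 0.29, 0.46 and -0.75 in WT mice 1, 2 and 3, and -1.15, -1.25 and -2.55 in KO 1, 2 and 7. Its p of 0.10 in the two-sided exact permutation test is the smallest that 3 against 3 mice can give, and adjusted over the 7 pairs it was 0.53. Next came Myl1 over Myl3 (-0.67), Tnnt3 over Tnnt1 (-0.63), Myh4 over Myh7 (-0.47), Mybpc2 over Mybpc1 (-0.24) and Tnni2 over Tnni1 (-0.20), with exact permutation p-values from 0.30 to 0.50. Leaving out 1 mouse turned the sign of the gap for the troponin C, troponin I and Mybpc pairs. In KO 1 alone the gap was below the WT mean in 6 of the 7 pairs. In WT 1, on the same slide, it was also below that mean in every pair but Mylpf over Myl2.

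**Figure D3:**
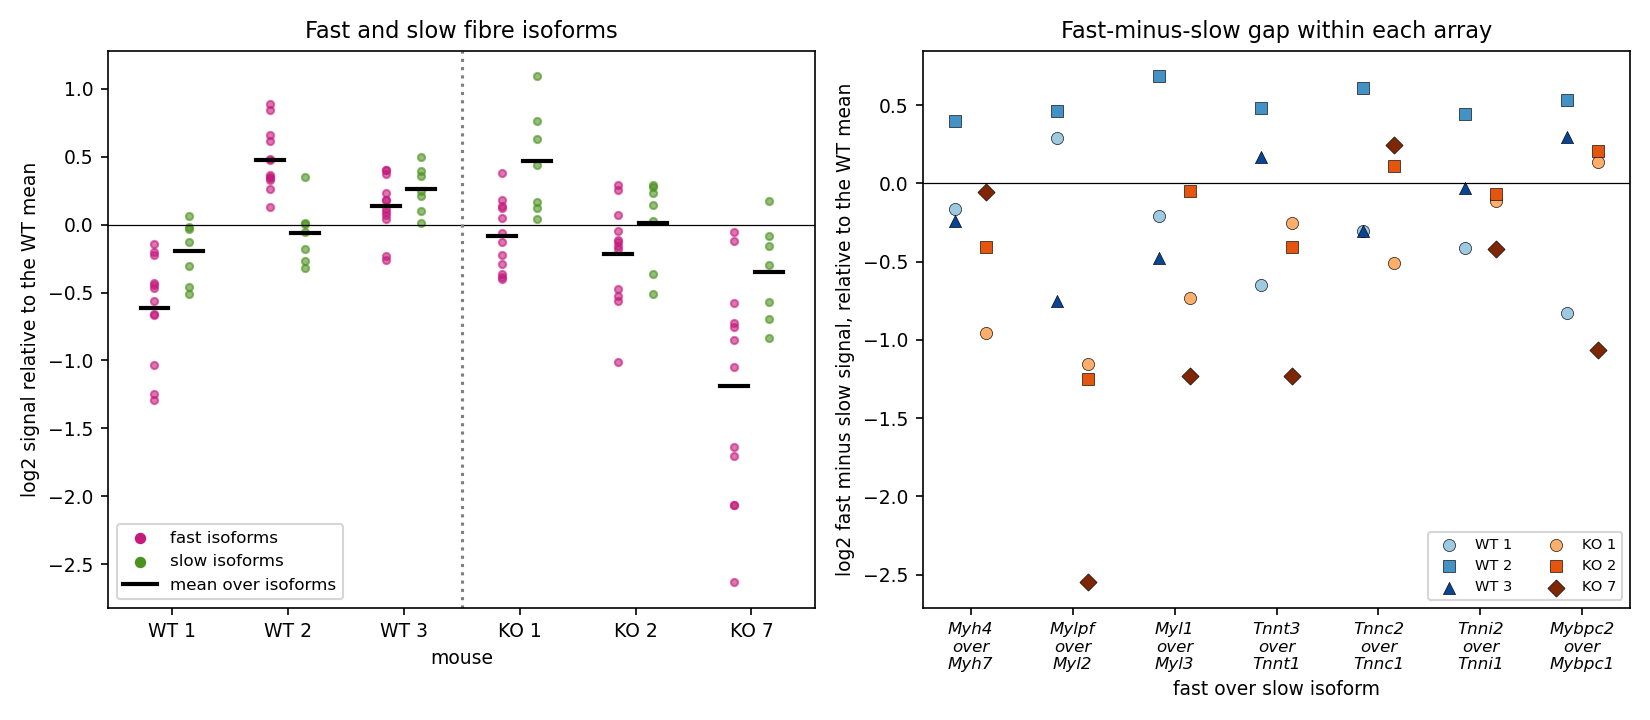
Left, log2 signal of the 12 fast and 7 slow isoform genes in each mouse relative to the WT mean (points, 1 per gene; bars, mean). Right, the fast-minus-slow difference of the 7 isoform pairs in each mouse, relative to its WT mean. WT 2 has the highest gap in every pair, and the groups are apart only for Mylpf over Myl2.

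Muscle genes outside the 40 were mostly lower in KO too. Of 88 measured genes in 7 further lists, 3 passed the test, all lower in KO, where 0.389% of all genes passed as lower. A lower mean in KO was seen in 77 (87.5%, median difference -0.54), against 44.9% of all genes. In 26 (29.5%) all KO mice lay below all WT mice, where 14% of all genes did. No other sarcomere gene passed of 23, of which 22 were lower. Trim63, a ubiquitin ligase of the sarcomere, and Myom3, a further M-band protein, had the smallest p (-0.96 ± 0.31, adjusted p = 0.13, and -0.42 ± 0.16, adjusted p = 0.17). None of 16 further calcium and membrane genes passed, all of them lower. The calcium pump Atp2a2 differed by -0.55 ± 0.18 (adjusted p = 0.12) and the slow calsequestrin Casq2 by -0.78 ± 0.26 (adjusted p = 0.14). Atp2a2 was highest in WT 1 (1.79), and whether its signal comes from muscle was not tested. None of 15 further energy genes passed, of which 13 were lower, with the smallest p for the glycogen-targeting subunit Ppp1r3a (-1.35 ± 0.58) and the mitochondrial creatine kinase Ckmt2 (-0.89 ± 0.39, adjusted p = 0.20 for both). None of 10 neuromuscular junction genes passed, of which 7 were lower. The acetylcholine receptor subunits Chrne (-0.56 ± 0.13, adjusted p = 0.078) and Chrnb1 (-1.20 ± 0.31, adjusted p = 0.092) came nearest. None of 9 dystrophin complex genes passed, of which 7 were lower, and the smallest p were those of Sgcd (-1.10 ± 0.29, adjusted p = 0.095) and Sspn (-0.46 ± 0.15, adjusted p = 0.14).

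Of the 3 genes that fell, Mymx and Myog regulate muscle formation and Myl4 is a developmental isoform. Mymx encodes myomixer, the micropeptide of myoblast fusion. Its probe (first 30 bases tgagtactttcaaagcttggtacgcagcag, on mm9 chr17:45737921-45737980) was at -2.64, -2.82 and -3.46 in WT mice and -5.72, -5.99 and -5.90 in KO, and the groups were far apart. It fell by 2.89 ± 0.23 on the log2 scale (7.43-fold lower, adjusted p = 0.0029). The probe was dimmer than that of Mylpf (WT mean -2.97, against -2.2), with a KO mean of -5.87, though well above background on all 6 arrays. How far background subtraction shapes this fold was not tested. Myog, the transcription factor myogenin that drives myoblasts into differentiation, was -2.18, -2.05 and -2.50 in WT mice and -3.43, -3.49 and -3.95 in KO, and it fell by 1.38 ± 0.20 (2.60-fold lower, adjusted p = 0.024). These were the 2 of 10 measured regulators that passed, where 0.389% of all genes passed as lower in KO. Of the 10, 9 were lower in KO, against 44.9% of all genes. Myl4, an atrial light chain also made in embryonic skeletal muscle, was the 1 of 5 developmental isoforms that passed. It was 1.20, 1.16 and 0.80 in WT mice and -0.41, -0.56 and -0.29 in KO, and fell by 1.48 ± 0.16 (2.78-fold lower, adjusted p = 0.0081). Actc1, the cardiac actin that embryonic and regenerating skeletal muscle makes too, was 2.25, 2.13 and 2.04 in WT mice and -0.36, 1.23 and -0.44 in KO (-1.995 ± 0.44, adjusted p = 0.070), and KO 2 lay between the WT mice and the other KO mice. The embryonic and perinatal myosins Myh3 and Myh8 belong to the same list and differed by 0.19 and 0.079. The Myh8 probe was as bright as those of adult chains (WT mean 6.09, against 5.83 for Myh4). Its likeness to the other myosin probes was not tested.

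Beside the mean of the 40 contractile genes, the values of these 3 genes ran as follows. WT 1, which averaged -0.53 over the 40 genes, had Mymx at 0.33, Myog at 0.063 and Myl4 at 0.14 relative to their WT means. KO 1, which averaged -0.037 over the 40 genes, had them at -2.75, -1.19 and -1.46. KO 2, at -0.28 over the 40 genes, had them at -3.01, -1.25 and -1.62, and KO 7, at -1.02, had them at -2.92, -1.70 and -1.35. Of the WT mice, WT 2 (0.36 over the 40 genes) had 0.15, 0.20 and 0.11, and WT 3 (0.17) had -0.49, -0.26 and -0.25. Myog thus had the order of the contractile mean among the KO mice, and Mymx and Myl4 did not. Within slide 1 the differences of the 3 genes were -2.75, -1.19 and -1.46, against -2.89, -1.38 and -1.48 over all mice. Mymx and Myl4 passed in all 6 fits that left out 1 mouse, with the highest adjusted p at 0.021 and 0.050. Myog passed in 2 of them, and the adjusted p reached 0.11. A fit with slide as a fixed block gives these same slide 1 differences, since slide 2 holds no WT mouse. It compares KO 1 alone with the WT mice and is no separate check. Whether these falls come from the muscle itself was not tested. Each of the 3 genes was read by 1 probe.

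**Figure D4:**
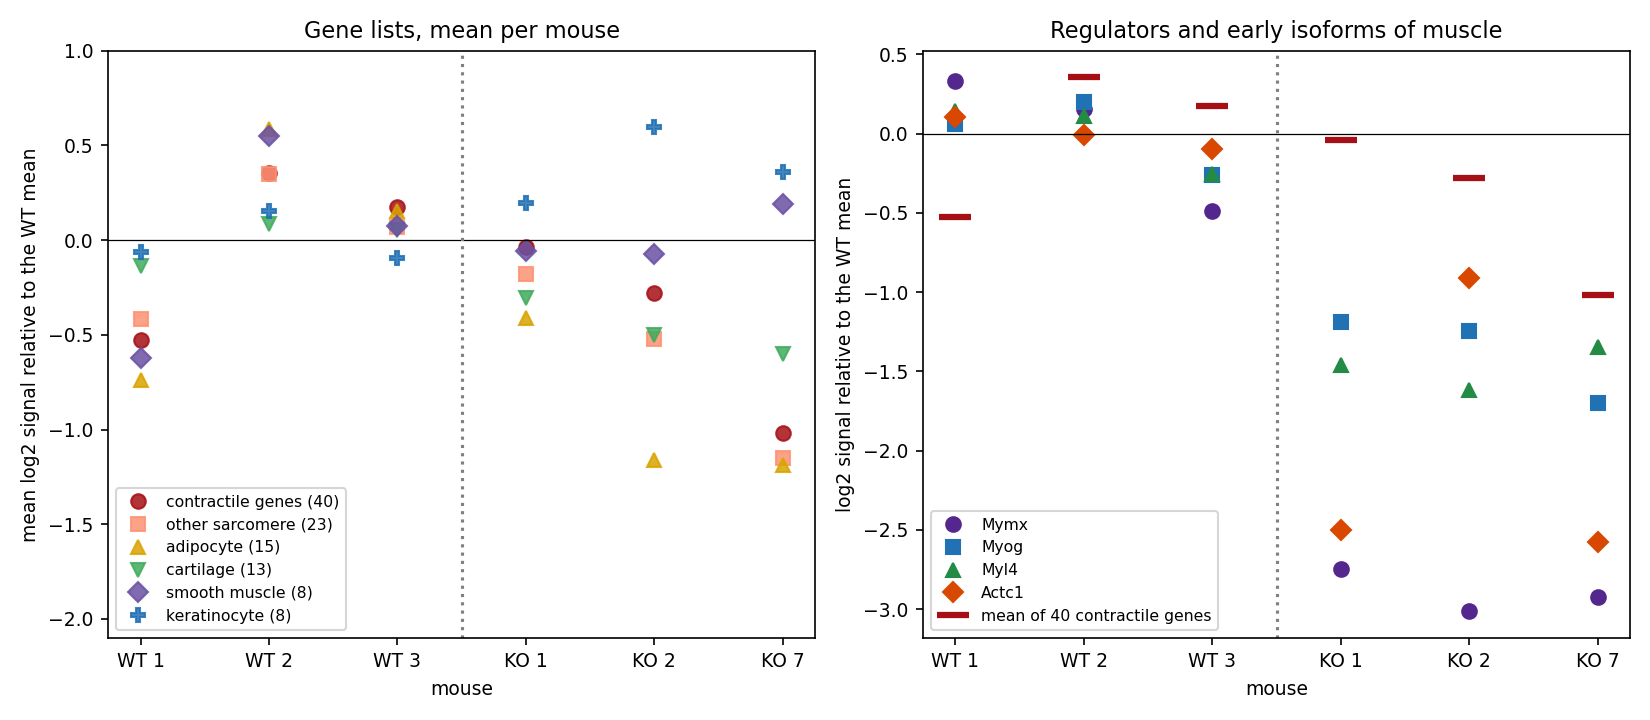
Left, mean log2 signal per mouse of 6 gene lists relative to the WT mean, with the number of genes in brackets. Right, the same scale for Mymx, Myog, Myl4 and Actc1, with bars at the mean of the 40 contractile genes. On the right Mymx lies at -2.75, -3.01 and -2.92 in KO 1, 2 and 7, while the contractile mean of KO 1 is -0.037.

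Markers of other tissue moved with the muscle genes in part. Adipocyte genes, 15 of 15 lower in KO with none passing (smallest adjusted p 0.11, Acvr1c, then Adipoq), averaged -0.74, 0.58 and 0.15 in WT mice 1, 2 and 3 and -0.41, -1.16 and -1.19 in KO 1, 2 and 7. Cartilage genes, 9 of 13 lower with none passing (Comp at an adjusted p of 0.069 and Col9a1 at 0.075), averaged -0.14 to 0.085 in WT mice and -0.60 to -0.31 in KO. Smooth muscle genes, 4 of 8 lower (Actg2 and Tagln having the smallest p, adjusted p = 0.28 and 0.36), averaged -0.62 to 0.55 in WT mice and -0.076 to 0.19 in KO. WT 1 was thus the lowest WT mouse for skeletal muscle, smooth muscle and fat alike, and by less for cartilage (-0.14). The 8 epidermal keratinocyte markers, among them Krt1 and Krt5, were above background on all arrays and 7 of them were higher in KO (adjusted p = 0.087 for Krt1 and 0.10 for Krt5). They averaged -0.095 to 0.16 in WT mice and 0.20 to 0.60 in KO. The part of these tissues in the muscle differences was not tested. Of 8 heart markers, Myl7 and Ryr2 did not reach the background limit. The other 6 include Myl4 and Tnnt2, listed above among the developmental isoforms, and Tnni3 (adjusted p = 0.080, higher in KO), and 3 were lower in KO.

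Probes of the same gene gave the same side in 8 of the 9 genes with several, and 42 of the 52 probes were lower in KO. None of the 52 passed when 29602 probes were tested singly. The sizes could still differ within a gene. The Myl1 probes were annotated to different transcripts of the gene. The one near the 5′ end, which crosses an exon junction, differed by -1.96, and the one near the 3′ end by -0.97. In Neb the probe at base 10763 differed by -0.14 and that at base 21759 by -1.22. Over 2504 transcripts with probes at least 500 bases apart, the 5′-minus-3′ signal relative to the WT mean had a median between -0.10 and 0.080 in WT mice and between 0.030 and 0.075 in KO mice. KO 7, at 0.064, lay within this range. Across the 40 genes, a brighter mean signal went with a difference nearer to 0 or above it (Spearman rho = 0.35, a description over genes that share their 6 arrays). The 75th percentile of intensity before scaling lay between 5276 and 6656 in WT mice and between 3806 and 4416 in KO mice.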

How the data were processed

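Total RNA from the ears of 6 mice was measured on 1-colour Agilent arrays (Cy3), 1 per mouse; groups and numbers come from the sample titles. The deposited scanner files hold each spot's processed signal as an intensity, which Agilent Feature Extraction 10.7.3.1 (protocol GE1_107_Sep09, design 026655) made by subtracting background, and did not scale between arrays, per the file headers. Equal values stand in the series matrix that was deposited. No source used here says how the RNA was labelled. No spot was saturated.

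Outlier spots were left out, spots of a probe averaged, and log2 taken minus the array's 75th percentile. Probes well above background on at least 3 arrays were kept, and each gene was read by its brightest kept probe. The comparison of KO against WT used limma 3.58.1 in R 4.3.3 (lmFit and eBayes, two-sided, no covariate), with Benjamini-Hochberg adjustment over all 23676 genes at 0.05, and the fit was tested on simulated data. P-values measure the spread between mice, and 3 per group limit the precision. The 7 isoform pairs were tested by exact permutation (scipy 1.17.1). The other steps ran in Python 3.11.15.

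The members, the lists and the pairs were chosen with earlier results of these data known. All 40 members are named. The values of every mouse are given for the pair genes and for the member with the smallest p in each role. Of other lists, genes that passed are named, up to 4 by p, or, with fewer than 2 such genes, the 2 of smallest p. Only the first 30 bases of probes are printed, since coding annotation was not used here. The alternatives varied background, scaling, filter, probe choice, the block and the mice.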

Additional observations from a re-analysis of the deposited data

How the results depend on the processing

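No contractile gene passed under any of the 17 alternatives. They are not independent checks: the series matrix repeats the main values, and leaving out mice or adding a block lowers the power. Slide as a fixed block compares KO 1 alone with the WT mice. In the other alternatives the smallest adjusted p in limma ranged from 0.058 (Cacng1, without KO 1) to 0.28 (Myh1, without WT 2). The count of contractile genes lower in KO was 28 to 36, and their median difference -0.78 to -0.16, when 1 mouse was left out. In those fits the fast median ranged from -0.84 to -0.12 (lowest without WT 1, highest without KO 7), the slow median from -0.076 (without KO 1) to 0.20, the median isoform gap from -0.66 to -0.27, and the calls among other muscle genes from 2 to 6, with 6 when KO 1 was left out. Over all genes the calls ranged from 202 (without WT 2) to 973 (without KO 1) against 561, and those lower in KO from 19 (without WT 2 or WT 3) to 254 (without KO 1) against 92. Normexp background gave 994 calls over all genes, and no filter gave 296, of which 27 were lower. The array median gave 149 lower calls and moved the median of all genes to -0.083 from 0.054. The share of calls lower in KO was 16.4% as reported, 26.4% after quantile normalization and 27.6% with the array median. With slide as a fixed block there were 168 calls, 10 of them lower, and 1 among other muscle genes.

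The replicate block, which pairs WT 1 with KO 1 and WT 2 with KO 2, gave 0 calls over all genes, 0 lower in KO and 0 among other muscle genes, and a fast median of 0.048. At an unadjusted p under 0.05 it held 1 contractile gene. The remaining WT mouse and the remaining KO mouse have no partner, so they add nothing to its differences. That KO mouse gave the lowest value for most of the contractile genes. The fit therefore also differs from the main one in the mice that it compares. Whether pairing by itself changes the calls or the signs was not tested. The deviations of same-numbered mice correlated at 0.083 and 0.054, and no label states a pairing, so these mice share only a number.

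Differences that turned sign were those of Tnni1 under normexp (-0.053), Myh2, Tnnc2 and Tcap under quantile normalization (-0.023, -0.23 and -0.21), Tnnc2, Tnni1 and Tcap with the array median (-0.029, -0.12 and -0.082), and Ttn with the mean of its probes (0.056). The replicate block rests on the same-numbered mice alone. With it Myh4, Myl3, Tnni2, Ttn, Actn3, Pvalb, Neb and Mybpc2 turned to 0.074, 0.091, 0.094, 0.0100, 0.081, 0.023, 0.27 and 0.21. Slide as a fixed block gives the difference of KO 1 from the WT mean. With it Myh4, Myl3, Tnni2, Neb, Mybpc1, Mybpc2, Myom1 and Myom2 turned to 0.14, 0.44, 0.050, 0.20, 0.042, 0.18, 0.0035 and 0.024. Leaving out 1 mouse turned 10, with ranges of -0.14 to 0.49 (Myh2), -0.47 to 0.015 (Myh4), -0.20 to 0.69 (Myh7), -0.076 to 0.39 (Tnnc1), -0.11 to 0.28 (Tnnc2), -0.078 to 0.12 (Tnni1), -0.41 to 0.0021 (Tnni2), -0.42 to 0.095 (Neb), -1.18 to 0.0087 (Mybpc2) and -0.18 to 0.23 (Tcap). The cause was not tested. Each group rests on 3 arrays, and slide 2 holds KO mice alone.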
